A study of Mus musculus with 8 samples.

Results

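Activator protein 1 (AP-1) is the family of transcription factors built from the Fos and Jun proteins and their close relatives, and its 10 genes listed here were Fos, Fosb, Fosl1, Fosl2, Jun, Junb, Jund, Atf3, Batf and Maff. The rule that chose them is a list of gene names without a threshold on measured values, and they are 10 of the 43346 gene identifiers counted in notochord-derived cells (NDCs) of the mouse. The study asked how mRNA abundance in these cells changes while the notochord, the embryonic rod that patterns the spine, turns into the nucleus pulposus (NP), the soft core of the intervertebral disc. All animals were Shh-cre;ROSA:YFP, a line in which Cre recombinase driven from the Shh gene switches on the yellow fluorescent protein YFP in Shh-expressing cells and all their descendants. RNA was sequenced from 4 litters at embryonic day 12.5 (E12.5), named NDP10.2, NPD3, NPD4 and NPD9.2, and from 4 litters at postnatal day 0 (P0), named NPD26, NPD27, NPD28 and NPD30. The animals of a litter were pooled, so each value below belongs to a litter and not to an animal. At E12.5 whole notochords were dissected free and frozen, without sorting. At P0 the NP was freed by mechanical agitation and its YFP-positive cells were sorted by flow cytometry, so developmental stage and method of isolation cannot be told apart in these samples.

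AP-1 proteins bind DNA as dimers through a basic leucine zipper (bZIP). Jun proteins can pair with each other, whereas Fos proteins need a Jun partner, and the dimers recognize the sequences TGACTCA and TGAGTCA as well as the cyclic AMP response element TGACGTCA. Fos, Fosb, Jun, Junb and Atf3 are immediate early genes, whose transcription rises within minutes when a cell meets a growth factor, mechanical load or stress, and their mRNAs are short lived. In the skeleton, Fos is required for osteoclast formation, and Fosl2 and Junb act in cartilage and bone growth.

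The reads assigned to genes numbered 4442775 to 7180221 in an E12.5 litter and 6371842 to 8904050 in a P0 litter. Levels are given as CPM, the counts of a gene scaled to a library size set by the TMM method. The smallest level that can be seen was taken as 3 counts in a litter. Before TMM scaling, on all reads assigned to genes, this equals 0.337 to 0.675 CPM (counting error only). A gene was called when the edgeR quasi-likelihood test gave an adjusted p under 0.05. Of the 15467 genes tested, 27.9% were called, 16.0% as higher and 12.0% as lower at P0, and their median log2 fold change of P0 over E12.5 was 0.04. That balance depends on scaling, with 2105 higher and 2322 lower under upper quartile scaling against 2468 and 1853 here. Reads that htseq-count set aside as ambiguous between genes made up 10.64% to 17.51% of reads in the E12.5 litters and 7.07% to 10.49% in the P0 litters. All reads not assigned to a single gene, these included, were 65.2% to 77.4% of those tallied. The notochord markers T, Krt8 and Krt19 were present in every litter of both stages, with E12.5 means of 584, 326 and 107 CPM and P0 means of 1319, 488 and 356 CPM. Among the other markers of the list, Cd24a and Car3 also had higher means at P0, whereas the means of Foxa1 (144 and 30.5 CPM), Sox9 (613 and 261 CPM), Krt18 (178 and 97.3 CPM), Foxa2 and Car12 were lower at P0. Noto, an early notochord factor, had at most 3 counts in a litter, and Shh was at a mean of 841 CPM at E12.5 and of 5.94 CPM at P0. Markers of blood cells differed widely between stages and among the P0 litters, and their values are given beside the AP-1 genes below.

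The promoters of Fos, Fosb and Junb, the called genes with the largest differences below, are shown beside that of Jun, which was not called, because these are the stretches from which immediate early transcription starts. Each is the 250 bases before the RefSeq start on GRCm38.p6, written in the direction of transcription. Capitals mark matches, on either strand, to the AP-1 site motif TGANTCA, to the cyclic AMP response element core TGACGT or to the Jun promoter variant TGACATCA. Fos lies at chr12:85473640-85473889 on the plus strand, and Fosb at chr7:19310046-19310295, Junb at chr8:84978749-84978998 and Jun at chr4:95052223-95052472 on the minus strand.
Fos: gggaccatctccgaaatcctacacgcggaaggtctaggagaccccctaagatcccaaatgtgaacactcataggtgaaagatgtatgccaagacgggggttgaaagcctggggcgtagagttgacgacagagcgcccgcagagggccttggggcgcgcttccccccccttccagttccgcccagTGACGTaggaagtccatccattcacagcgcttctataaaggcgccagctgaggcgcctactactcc
Fosb: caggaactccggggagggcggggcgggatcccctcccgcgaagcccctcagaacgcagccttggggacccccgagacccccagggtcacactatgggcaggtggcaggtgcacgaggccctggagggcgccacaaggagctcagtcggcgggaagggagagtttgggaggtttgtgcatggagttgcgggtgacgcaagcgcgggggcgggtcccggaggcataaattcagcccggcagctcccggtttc
Junb: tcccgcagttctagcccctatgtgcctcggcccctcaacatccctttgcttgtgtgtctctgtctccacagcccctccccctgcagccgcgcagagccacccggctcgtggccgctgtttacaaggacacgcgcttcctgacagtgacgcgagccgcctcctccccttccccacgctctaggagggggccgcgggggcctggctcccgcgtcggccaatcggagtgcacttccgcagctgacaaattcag
Jun: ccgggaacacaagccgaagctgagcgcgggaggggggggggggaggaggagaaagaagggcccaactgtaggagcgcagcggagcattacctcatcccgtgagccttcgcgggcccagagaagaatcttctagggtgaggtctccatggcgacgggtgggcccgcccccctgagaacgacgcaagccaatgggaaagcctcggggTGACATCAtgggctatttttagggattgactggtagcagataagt

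Windows of this kind were found for 9 of the 10 genes, all but Fosl1. The motif TGANTCA, which covers the AP-1 site itself, had no match in any of the 9, against 6.75% of the 32851 mouse promoter windows of the same length. Counts here are of genes and shares are of windows, and Maff has 3 windows, at different starts, where the other 8 genes have 1 each. The core of the cyclic AMP response element, TGACGT, matched in Fos at bases -66 to -61 from the start, and in Atf3, Batf and Maff, against 6.47% of all windows. These matches include the whole element TGACGTCA, which was present in Maff and in 1.55% of windows. The variant TGACATCA, which the Jun promoter is known for, matched in Jun at bases -45 to -38 and in another window of Maff than TGACGT, against 2.93% of windows. Fos also held a TATAAA at bases -33 to -28 (12.4% of windows), and the CCAAT box matched in Jun and Junb (33.8% of windows). The GC box GGGCGG was the most shared, in 7 of the 9 genes, at a share of 32.7% of all windows, and the CArG box, bound by serum response factor (SRF), matched in none of the 9 (1.47% of windows). A match is only a run of letters, and sites outside these windows were not searched. The windows sit at RefSeq starts, which can differ from the Gencode gene bounds given below. That of Jund, chr8:70697489-70697738, lies well upstream of the Gencode start at 70698949, and those of Fosl2 and Atf3 lie inside the Gencode genes. The Maff windows that hold the TGACGTCA and TGACATCA matches lie inside the Gencode gene as well. Those of Batf and Fosb run past the Gencode starts into the genes.

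At P0, Fos, Fosb, Fosl2 and Junb were higher than at E12.5, from 4.29-fold for Fosl2 to 30.2-fold for Fosb. These are 4 members called, all higher, where 16.0% of all genes tested were called higher. The members were chosen with earlier results of these data known, so this count is only a description. Jun, Jund, Atf3 and Maff did not pass the test. Fosl1 and Batf did not pass the filter on low counts and were not tested. In each of the 4 called genes every P0 litter lay above every E12.5 litter, which held for 15.5% of all genes tested in this direction and for 29.9% in either direction. Fos and Fosb reached the filter's level of 1.54 CPM in 4 litters at P0 and in only 3 and 2 litters at E12.5, so they passed it through P0, and the number of members that passed is not a result. As a description, the median log2 fold change of the 8 tested was 1.72 against 0.04 over all genes tested. Bulk samples cannot tell fewer cells of a type from less RNA per cell, which holds for every value here.

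**Figure D1:**
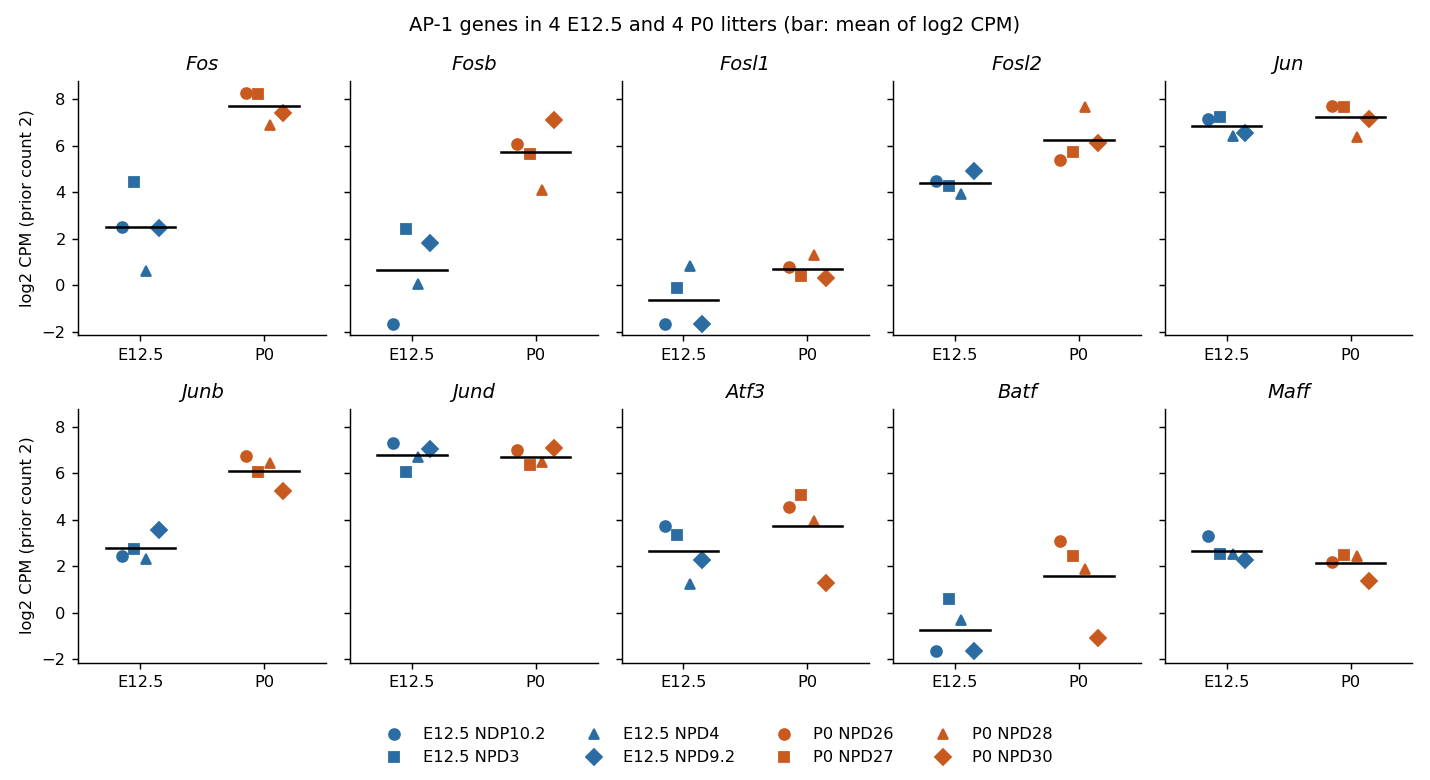
Levels of the 10 AP-1 genes in log2 CPM (vertical axis, prior count of 2), 1 point per litter, E12.5 in blue and P0 in orange, with a bar at the mean of each stage. The stages do not overlap in Fos, Fosb, Fosl2 and Junb and overlap in the other 6 genes.

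Of the Fos class, Fos (ENSMUSG00000021250.9, chr12:85473890-85477273, plus strand) is the founding member and the partner that stabilizes Jun dimers on DNA. It was at 5.43, 21.5, 1.21 and 5.16 CPM in NDP10.2, NPD3, NPD4 and NPD9.2 and at 311, 297, 118 and 170 CPM in NPD26, NPD27, NPD28 and NPD30. NPD3 stood highest among the E12.5 litters and NPD4 lowest, and even the lowest P0 litter, NPD28, was well above NPD3. The mean rose from 8.32 ± 8.98 CPM to 224 ± 95 CPM (SD, n = 4 per stage). The log2 fold change was 4.76 ± 0.77 (SE), a 27.0-fold increase with a 95% confidence interval of 8.21 to 89.1, and the edgeR adjusted p was 0.00189. Only 2.35% of the genes tested had a larger log2 fold change. Without NPD3 the log2 fold change was 5.84 (adjusted p = 0.000921), a larger estimate than with it.

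Fosb (ENSMUSG00000003545.2, chr7:19302696-19310051, minus strand) encodes a protein close to Fos whose truncated form accumulates under repeated stimulation. Its level was 0, 5.07, 0.725 and 3.20 CPM in the E12.5 litters and 66.2, 49.6, 17.0 and 135 CPM in the P0 litters, in the same order. No read was counted in NDP10.2, NPD28 was again the lowest litter at P0, and NPD30, not NPD26, was the highest. The mean rose from 2.25 ± 2.33 to 67.0 ± 49.9 CPM (SD, n = 4 per stage), with a log2 fold change of 4.91 ± 0.91 (SE) and an edgeR adjusted p of 0.0035. The fold increase of 30.2 had a wide interval, from 7.38 to 123. Without NPD3 the log2 fold change was 5.72 (adjusted p = 0.00713) and without NPD30 it was 4.28 (adjusted p = 0.00653). The E12.5 litters held 0, 26, 6 and 13 counts of Fosb, so its fold rests on few reads at that stage.

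Fosl2 (chr5:32135801-32157842, plus strand), which encodes Fra-2, is a slower member of the class that acts in chondrocytes and osteoblasts. It stood at 22.2, 19.1, 14.7 and 30.0 CPM at E12.5 and at 41.5, 52.2, 205 and 69.3 CPM at P0. The E12.5 litters were close together, and at P0 a single litter, NPD28, was far above the other 3. The mean rose from 21.5 ± 6.43 to 91.9 ± 76.1 CPM (SD, n = 4 per stage), a log2 fold change of 2.10 ± 0.50 (SE) with an edgeR adjusted p of 0.0103. Without NPD28 the log2 fold change dropped to 1.35 and remained called (adjusted p = 0.00979). When the test asked for a change beyond a fold of 2, Fosl2 was not called (edgeR adjusted p = 0.0587), and with NDP10.2 and NPD9.2 both left out it was not called either (log2 fold change 2.4, adjusted p = 0.0605).

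Fosl1 (chr19:5447547-5455946, plus strand), which encodes Fra-1, a regulator of bone matrix, was close to the limit of detection. It had 0, 3, 12 and 0 counts in the E12.5 litters and 9, 7, 18 and 6 counts in the P0 litters. The ranges overlapped, with NPD4 at E12.5 above 3 of the 4 P0 litters in counts, and the means were 0.509 ± 0.686 and 1.36 ± 0.549 CPM (SD, n = 4 per stage). Of its exon bases 57.2% are shared with Ccdc85b on the opposite strand. Whether the counting used strand is not given in the sources used here, so reads of the 2 genes may not have been told apart.

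Among the Jun class, Junb (chr8:84974484-84978718, minus strand), a weaker activator than Jun that can oppose it, was the member with the smallest p. Its level was 5.19, 6.44, 4.59 and 11.3 CPM at E12.5 and 107, 65.5, 85.9 and 37.1 CPM at P0. NPD9.2 was the highest E12.5 litter, and the lowest P0 litter, NPD30, was above it. The mean rose from 6.88 ± 3.05 to 73.8 ± 29.7 CPM (SD, n = 4 per stage). The log2 fold change was 3.44 ± 0.40 (SE), a 10.8-fold increase, with an edgeR adjusted p of 0.00032. It was called under all the alternatives tried, each single litter left out included, with log2 fold changes of 3.21 to 3.73. A stretch of 7.5% of its exon bases is shared with Prdx2 on the opposite strand, which moved the other way, from 429 to 184 CPM.

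Jun (chr4:95049034-95052222, minus strand), the activator that pairs with all Fos proteins, was abundant at both stages. It was at 139, 151, 85.1 and 92.0 CPM at E12.5 and at 209, 199, 82.8 and 139 CPM at P0. NPD26 and NPD27 were above every E12.5 litter, NPD30 was within their range and NPD28 was below all of them. The means of 117 ± 33.1 and 158 ± 58.7 CPM (SD, n = 4 per stage) gave a log2 fold change of 0.43 ± 0.32 (SE), with an interval from -0.28 to 1.14 and an edgeR adjusted p of 0.355. The antisense gene Junos shares 7.3% of the Jun exon bases and had means of 2.12 and 2.08 CPM. Since the interval of Jun holds both 0 and 1.14, neither a stage difference nor an equal level was shown.

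Jund (chr8:70698949-70700616, plus strand), which most cell types transcribe steadily and which restrains growth, was at 160, 66.0, 103 and 131 CPM at E12.5 and at 125, 80.5, 88.2 and 135 CPM at P0. All P0 litters fell inside the E12.5 range. The log2 fold change was -0.10 ± 0.30 (SE), with an interval from -0.76 to 0.56 and an edgeR adjusted p of 0.838. Its sign changed when NDP10.2 was left out (0.06) and when NPD27 was left out (0.03), so no direction is given. The antisense gene Gm11175 shares 52.6% of the Jund exon bases and had 0 counts in every litter.

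Atf3 (chr1:191170296-191218039, minus strand), a stress-induced bZIP protein that can repress as a homodimer, was at 13.0, 9.95, 2.06 and 4.43 CPM at E12.5 and at 23.3, 32.9, 15.1 and 2.12 CPM at P0. NPD26, NPD27 and NPD28 were above every E12.5 litter, and NPD30 was at the level of the lowest of them. Over all litters the log2 fold change was 1.33 ± 0.75 (SE), with an interval from -0.34 to 3.0, and the edgeR adjusted p was 0.218. Without NPD30 it was 1.67 with an adjusted p of 0.0405, so this litter decided the call.

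Batf (chr12:85686669-85709087, plus strand), a small factor that pairs with Jun proteins in lymphocytes and dendritic cells, split the P0 litters in the same way. It had 0, 6, 4 and 0 counts at E12.5 and 52, 35, 29 and 1 counts at P0. The litter with a single count was NPD30, which lay inside the E12.5 range. The means were 0.414 ± 0.554 and 4.20 ± 3.34 CPM (SD, n = 4 per stage). With no filter on low counts Batf was called (edgeR adjusted p = 0.00919), in a fit that called 9.18% of 32299 genes as higher, and without NPD30 it passed the filter and was called (adjusted p = 0.0128). Batf reached 1.54 CPM in 0 litters at E12.5 and 3 at P0, so without NPD30 it passed the filter through the P0 litters alone. Whether Batf was tested there thus hung on its P0 level, which limits that call. It also passed the filter when any 1 of the E12.5 litters was left out, and was not called in those 4 fits (adjusted p from 0.0519 to 0.122).

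Maff (chr15:79346621-79359076, plus strand), a small Maf protein without an activation domain, was low at both stages. It was at 9.44, 5.46, 5.44 and 4.43 CPM at E12.5 and at 4.25, 5.34, 5.18 and 2.27 CPM at P0. NDP10.2 was the highest and NPD30 the lowest of the 8, and the stages overlapped. The log2 fold change was -0.53 ± 0.43 (SE), with an interval from -1.49 to 0.42 and an edgeR adjusted p of 0.398.

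**Figure D2:**
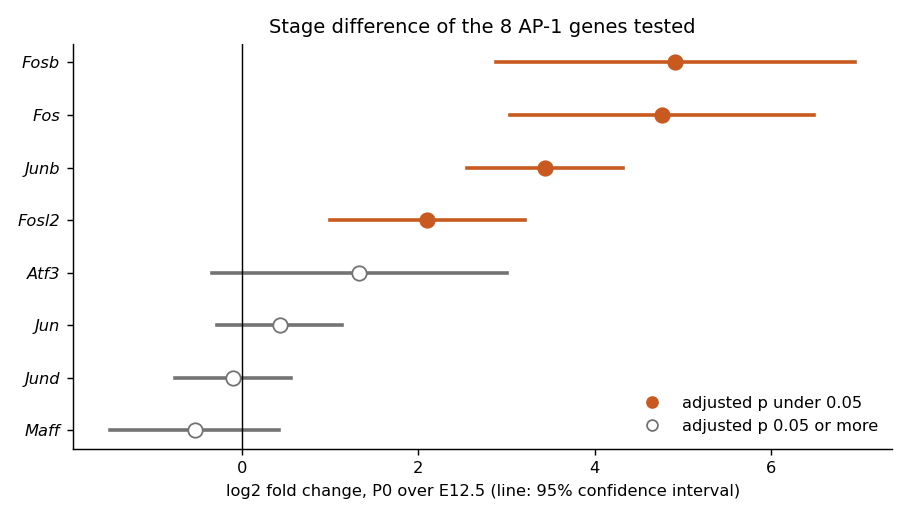
Log2 fold change of P0 over E12.5 (horizontal axis) with 95% confidence intervals for the 8 AP-1 genes tested, filled where the adjusted p was under 0.05. The intervals of Fosb, Fos, Junb and Fosl2 lie above 0 and those of Atf3, Jun, Jund and Maff include it.

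To compare levels between genes, CPM was divided by the exon length of each gene in kilobases, which gives RPKM. At E12.5 most of the family was Jund and Jun, at 68.9 ± 24.0 and 36.6 ± 10.4 RPKM (SD, n = 4), whose ranges over litters overlapped. Jun was apart from the next gene, Fos, at 3.54 ± 3.82 RPKM. Atf3, Junb, Maff and Fosl2 followed at 3.41, 2.99, 2.39 and 2.22 RPKM, each overlapping the next, and Fosb, Batf and Fosl1 were at 0.360, 0.294 and 0.250 RPKM. At P0 Fos had the highest mean, 95.2 ± 40.4 RPKM, ahead of Jund at 64.3 ± 16.1, Jun at 49.4 ± 18.4 and Junb at 32.1 ± 12.9 RPKM. Fosb, Fosl2 and Atf3 followed at 10.7, 9.50 and 8.51 RPKM, and Batf, Maff and Fosl1 were last at 2.99, 1.64 and 0.671 RPKM. Every neighbour in the P0 order overlapped the next over litters, so the order of the means there is not an order of levels beyond their spread.

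Summed over the 10 genes, the family stood at 156, 109, 96.8 and 122 RPKM at E12.5 and at 353, 300, 203 and 244 RPKM at P0, with every P0 litter above every E12.5 litter. The Fos class (Fos, Fosb, Fosl1 and Fosl2) made up 2.95%, 11.2%, 2.96% and 4.76% of that sum at E12.5 and 41.8%, 46.7%, 37.0% and 41.6% at P0. The share of the Fos class was therefore several times larger in every P0 litter than in NPD3, the E12.5 litter where it was largest. The Jun class held between 81.9% and 93.5% in the E12.5 litters and between 46.4% and 57.6% in the P0 litters. The ratio of summed Fos class to summed Jun class RPKM ran from 0.0317 to 0.136 over the E12.5 litters and from 0.646 to 1.01 over the P0 litters. Fos class transcripts were thus a small addition to those of the Jun class in the E12.5 litters and came close to them in the P0 litters. Within the Jun class, Junb held between 1.59% and 4.38% in the E12.5 litters and between 11.5% and 32.2% in the P0 litters. Within the Fos class, Fosl2 held 49.8%, 16.2%, 53.1% and 53.4% at E12.5 and 2.90%, 3.85%, 28.2% and 7.06% at P0, with NPD28 again the P0 litter set apart. Whether reads in the 52.6% of Jund exon bases shared with antisense Gm11175 were counted is not known, and if they were not, the RPKM of Jund and the share of the Jun class are too low at both stages. These shares are mRNA per exon length and say nothing of protein or of which dimers formed.

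**Figure D3:**
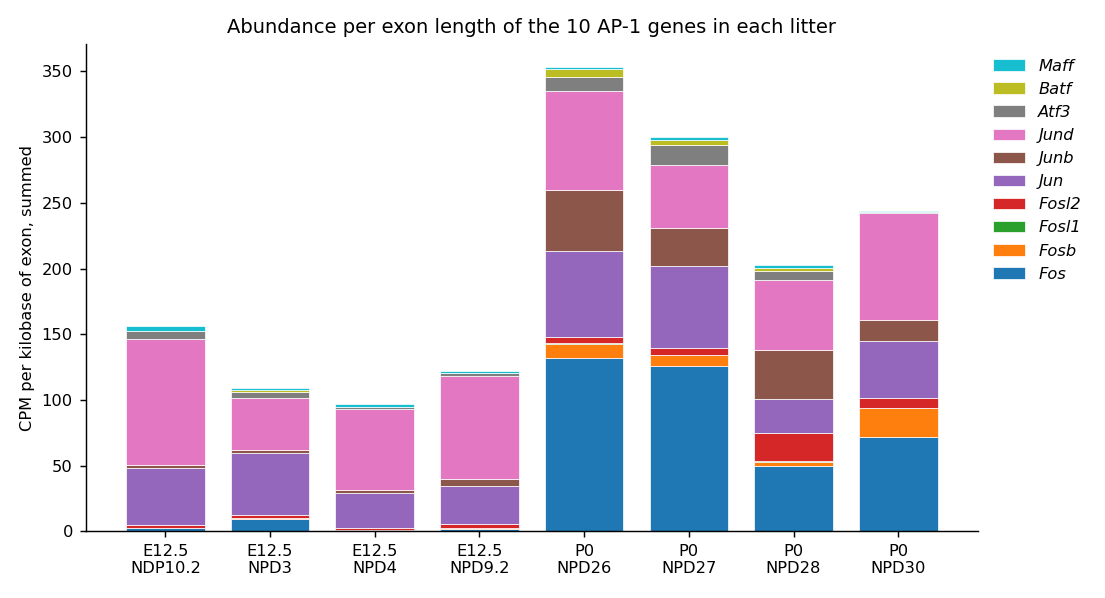
Stacked abundance of the 10 AP-1 genes in each litter, in CPM per kilobase of exon (vertical axis from 0). Jund and Jun fill most of each E12.5 bar, and Fos, Junb and Fosb add the blue, brown and orange blocks that raise the P0 bars to between 203 and 353.

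Several sets of markers of other cell types differed between the stages as the called AP-1 genes did. Of 14 leukocyte markers 13 were tested and all 13 were called higher at P0, where 16.0% of all genes tested were called higher. Summed leukocyte markers were at 106, 82.0, 101 and 224 CPM at E12.5 and at 5953, 6889, 6541 and 647 CPM at P0. None of the leukocyte markers was at 0 in every litter of a stage. Summed neutrophil markers were at 4.01 to 15.8 CPM at E12.5 and at 764, 802, 6678 and 973 CPM at P0, with 7 of 7 tested higher, and Elane was at 0 in every E12.5 litter. Summed macrophage and osteoclast markers were at 69.9 to 114 CPM at E12.5 and at 4228, 4466, 1365 and 148 CPM at P0, with 8 of 8 tested higher. Among the P0 litters NPD30 thus had the lowest summed leukocyte markers and the highest summed notochord markers, 32348 CPM against 8349 to 12854 CPM in the other P0 litters. Most of that notochord sum was 1 gene, Car3, at 24889 CPM in NPD30. NPD30 also had the highest summed osteoblast markers, 671 CPM against 324 to 514 CPM in the other P0 litters. Its leukocyte sum was still above the E12.5 maximum, and its neutrophil sum was second only to that of NPD28. In NPD30 Fos was at 170 CPM and Fosb at 135 CPM against E12.5 maxima of 21.5 and 5.07 CPM, Junb at 37.1 CPM against 11.3 CPM, and Atf3 and Batf were within the E12.5 range. NPD28, where neutrophil markers were highest, had the highest Fosl2 and the lowest Fos, Fosb and Jun of the P0 litters. The part of these cells in the AP-1 differences was not tested.

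**Figure D4:**
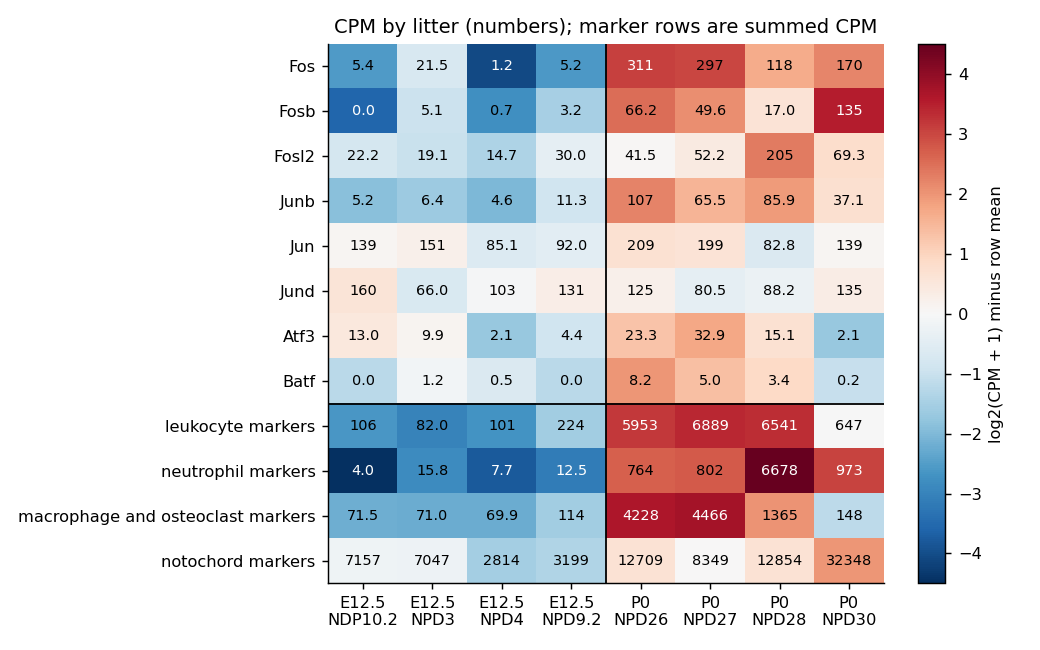
CPM of 8 AP-1 genes and summed CPM of 4 marker sets in each litter (numbers), coloured by log2(CPM + 1) minus the mean of the row. Summed leukocyte markers in NPD30 (647 CPM) lie between those of the E12.5 litters (at most 224 CPM) and of the other P0 litters.

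The litters of the stages did not overlap for markers of bone, of sclerotome or of primitive red cells. Summed osteoblast markers were at 29.4 to 84.1 CPM in the E12.5 litters against 324 to 671 CPM in the P0 litters. Summed sclerotome markers were at 135 to 205 CPM in the E12.5 litters against 8.0 to 23.2 CPM in the P0 litters. The sclerotome forms the vertebrae around the notochord. Summed primitive erythroid globins were at 8120 to 32815 CPM in the E12.5 litters against 2.12 to 7.07 CPM in the P0 litters. Summed endothelial markers (73.2 to 155 against 26.7 to 117 CPM) and neural tube markers (48.8 to 871 against 115 to 293 CPM) overlapped between stages. Their part in the AP-1 differences was not tested.

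The AP-1 members and the gene lists from here on were chosen with earlier results of these data known. Their shares, like those of the marker sets above, are only descriptions. The other bZIP genes that can pair or compete with AP-1 proteins numbered 27, of which 25 were tested. Of these 11 (44.0%) were higher at P0 and 1 was lower, with 13 not passing the test, against 16.0% of all genes called higher, and the median log2 fold change was 0.81. Those that rose included Cebpa, a myeloid regulator (log2 fold change 4.21, edgeR adjusted p = 0.00247), and Cebpb, which acts in inflammation (2.66, adjusted p = 0.00212). The only gene to fall was Bach2, a repressor in lymphocytes, from 93.6 ± 36.9 to 35.0 ± 5.84 CPM (SD, n = 4 per stage, log2 fold change -1.42, edgeR adjusted p = 0.00436).

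The list named MAPK and SRF genes here holds mitogen-activated protein kinase (MAPK) pathway genes, serum response genes and turnover regulators of Fos and Jun. Of these 34 of 34 were tested, and 6 were higher and 1 lower at P0, with a median log2 fold change of 0.23. Their share called, 20.6%, was below the 27.9% of all genes called in either direction. Called higher were 17.6% of the list, against 16.0% of all genes. Map3k8, a kinase that feeds into the extracellular signal-regulated kinases, rose from 2.03 ± 0.634 to 35.1 ± 19.1 CPM (SD, n = 4 per stage, log2 fold change 4.12, edgeR adjusted p = 0.000363). Mef2a (log2 fold change 1.12, adjusted p = 0.00352) and Rps6ka1 (1.47, adjusted p = 0.0389) also rose. Elk1, a partner of SRF, was lower (-0.90, adjusted p = 0.0235). The calls of Rps6ka1 and Elk1 were lost when some single litters were left out, in 6 and 3 of 8 fits. The list's count fell to 3 without NPD27 and to 4 without NPD3, NPD9.2, NPD26 or NPD28. Srf itself was at 35.0 ± 12.3 and 41.3 ± 10.3 CPM (SD, n = 4 per stage, adjusted p = 0.576).

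Among 40 other immediate early genes 38 were tested, and 15 (39.5%) were higher and 2 lower at P0, against 16.0% of all genes called higher, with 21 not passing the test and a median log2 fold change of 0.93. The largest increases were those of Dusp2, a phosphatase that turns MAPK off (4.12, edgeR adjusted p = 0.00251, not called by limma-voom at 3.74, adjusted p = 0.0859), Zfp36, which speeds the decay of short-lived mRNAs (3.88, adjusted p = 0.000692), and Tnfaip3, an inhibitor of NF-kappaB (3.64, adjusted p = 0.00174). Dusp2 was at 0.236 to 1.45 CPM in the E12.5 litters and passed the filter through P0. Dusp4 fell from 18.1 ± 4.39 to 1.10 ± 0.500 CPM (SD, n = 4 per stage, log2 fold change -4.03, edgeR adjusted p = 0.000234), and Nr4a2 fell with a log2 fold change of -1.68 (adjusted p = 0.00656). Egr1, chosen after its values were seen because it is the usual companion of Fos, was at 34.0, 181, 8.83 and 43.3 CPM at E12.5 and at 239, 252, 91.1 and 107 CPM at P0. NPD3 was the highest and NPD4 the lowest E12.5 litter for Egr1, as for Fos, but NPD3 lay inside the P0 range and the stages overlapped. Its log2 fold change of 1.37 was not called with all litters (edgeR adjusted p = 0.212) and was called without NPD3 (log2 fold change 2.56, adjusted p = 0.0176).

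Of 29 genes known from other systems as AP-1 targets, 19 were tested, and 10 (52.6%) were higher and 2 lower at P0, against 16.0% of all genes called higher, with a median log2 fold change of 1.81. This list too was chosen with earlier results of these data known, so its share is only a description. Mmp13 was at the filter's level of 1.54 CPM in 0 and Ptgs2 in 1 of the E12.5 litters, so both passed the filter through P0, and they are part of that count and median. Mmp13, a collagenase and a classic AP-1 target in cartilage and bone, was under the level of 3 counts in the E12.5 litters and at 149 ± 38.7 CPM at P0 (SD, n = 4, edgeR adjusted p = 1.13e-05). Mmp9, a gelatinase of neutrophils and osteoclasts, rose from 2.66 ± 0.933 to 353 ± 471 CPM (SD, n = 4 per stage, log2 fold change 7.08, edgeR adjusted p = 0.000911), with a spread at P0 larger than its mean and a log2 fold change of 5.50 without NPD28. Ptgs2, the inducible cyclooxygenase, had an E12.5 mean of 0.451 ± 0.749 CPM and a P0 mean of 11.1 ± 5.66 CPM (SD, n = 4 per stage, edgeR adjusted p = 0.00359), a log2 fold change of 4.53, or 6.36 without NPD3. In the other direction Ccnd1, cyclin D1, fell from 107 ± 25.3 to 24.6 ± 4.87 CPM (SD, n = 4 per stage, log2 fold change -2.12, edgeR adjusted p = 0.000407) and Mmp14 was lower as well (log2 fold change -0.79, adjusted p = 0.0337), a call lost in 6 of 8 fits that left out a single litter. Mmp9 and Mmp13 are also known products of neutrophils, osteoclasts and osteoblasts, whose summed markers were higher at P0, and the part of those cells in these values was not tested.

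Heat shock genes, which answer to protein damage, gave 14 tested of 15 listed, with 3 higher at P0 and a median log2 fold change of 0.38. The share called, 21.4%, was under the 27.9% of all genes called in either direction. All of these calls were higher at P0, where 16.0% of all genes were called higher. Hspa1b rose with a log2 fold change of 3.15 (edgeR adjusted p = 0.0163) and overlapped between stages, its call was lost without NPD3, and its log2 fold change was 3.85 without NPD9.2. Hspb8 rose with 1.90 (adjusted p = 0.00392). Hspa8 rose with 0.76 (adjusted p = 0.0444), a call lost in 7 of 8 fits that left out a single litter.

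**Figure D5:**
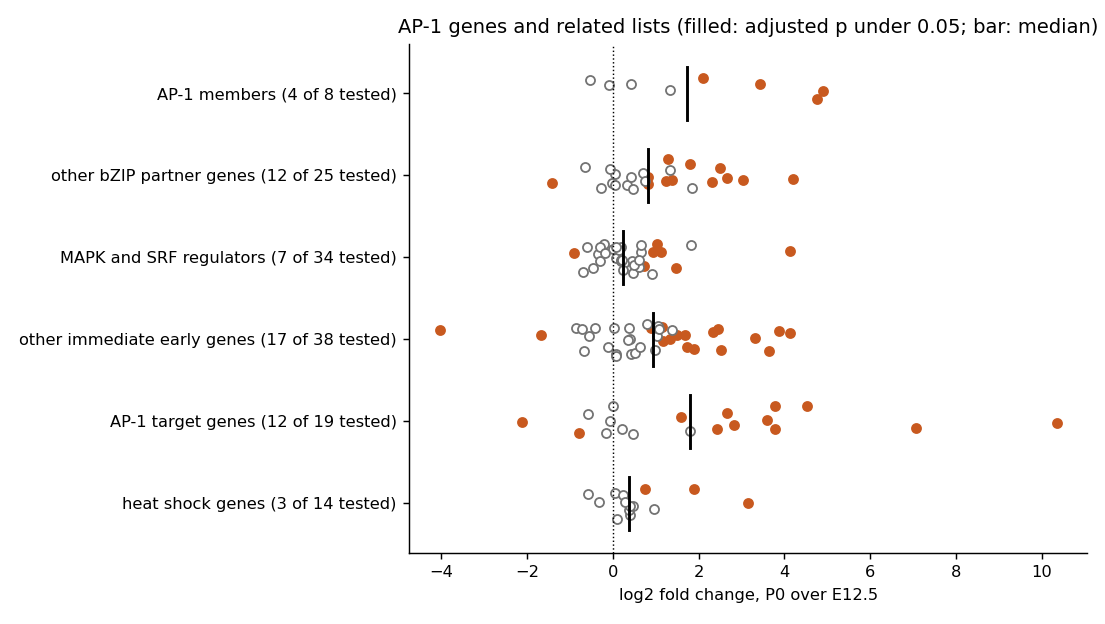
Log2 fold change of P0 over E12.5 (horizontal axis) of every tested gene of the AP-1 family and of 5 related lists, filled where the adjusted p was under 0.05, with a bar at the median of each list. The AP-1 target genes reach the largest values. The medians of the MAPK and SRF genes and of the heat shock genes lie close to 0, at 0.23 and 0.38, with single genes well above.

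The genes outside the family whose profile over the 8 litters was nearest to that of Fos, by the root mean square difference of centred log2 CPM, were Trarg1 at 0.90, Tmem106a at 0.93 and Tmem233 at 0.97. Within the family the nearest was Fosb at 1.24, and 55 tested genes were nearer to Fos than Fosb was. For Jun the nearest were Arsk at 0.19, Cyb5a at 0.20 and Lyrm4 at 0.21, and its nearest relative, Jund, was at 0.66 with 4914 tested genes nearer. These distances describe 8 litters that fall into 2 stages, and any gene with a like stage difference lies near.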

How the data were processed

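Total RNA of pooled litters was sequenced as single-end reads from 4 E12.5 and 4 P0 litters. The authors aligned reads with STAR 2.4.0j (GRCm38.p3), counted them per Gencode M4 gene with htseq-count and deposited raw counts without normalization. The strand setting is not given in the sources used here. Positions and exon lengths come from Gencode M21, promoter windows from RefSeq (GRCm38.p6).

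Counts were tested in R 4.3.3 with edgeR 4.0.16 (TMM, filterByExpr with a minimum count of 10 and total of 15, robust quasi-likelihood F-test, Benjamini-Hochberg adjustment over 15467 genes), after a check on simulated data. Log2 CPM used a prior count of 2. Each p-value is for the stage difference, judged against the spread between litters. Reads on genes per litter ran from 4442775 to 8904050. RPKM is CPM over exon length. Alternatives were DESeq2 1.42.0, limma-voom 3.58.1, other scalings and filters, mitochondrial and hemoglobin genes left out, a test beyond a fold change of 2, and each litter left out. Leaving out NDP10.2 and NPD9.2 together was chosen after seeing the data.

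The members and lists were chosen with earlier results of these data known. Named genes were all 10 members, up to 3 called genes per direction of each other list with the largest change at a mean log2 CPM of at least 2, and the 3 nearest profiles to Fos and Jun. A gene that this rule names is not reported here. Reads not assigned to a single gene, ambiguous ones included, were 65.2% to 77.4% of those tallied and stayed out of library sizes.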

Additional observations from a re-analysis of the deposited data

How the results depend on the processing

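Fos, Fosb and Junb were called wherever they were tested, and the log2 fold changes over the fits that left out a single litter were 4.36 to 5.84 for Fos, 4.28 to 5.72 for Fosb, 1.35 to 2.35 for Fosl2, 0.27 to 0.65 for Jun, 3.21 to 3.73 for Junb, -0.33 to 0.06 for Jund, 0.90 to 1.70 for Atf3 and -0.70 to -0.31 for Maff. Over the same fits the calls numbered 4 to 6 AP-1 genes, 3612 to 4529 of all genes, 10 to 14 other bZIP genes, 3 to 7 MAPK and SRF genes, 14 to 18 other immediate early genes, 11 to 14 target genes and 2 to 4 heat shock genes. Without NPD30 the 6 AP-1 genes included Atf3 and Batf. In the test beyond a fold change of 2 the calls fell to 1928 of all genes, 5 other bZIP genes, 1 MAPK or SRF gene, 8 other immediate early genes and 1 heat shock gene, and Fosl2 (2.10, edgeR adjusted p = 0.0587) was not called, which follows from the stricter test. Requiring a fold change over 2 beside the usual test left 4 MAPK and SRF genes. With NDP10.2 and NPD9.2 left out, an alternative chosen after seeing the data with 2 fewer samples, 2581 of all genes and 11 other immediate early genes were called, Fosl2 was at 2.4 (adjusted p = 0.0605) and Jund at 0.31 (adjusted p = 0.572). With no filter 5 AP-1 genes were called, Batf added, and with at least 10 counts in every sample 3, since Fosb was then not tested. Upper quartile scaling moved the median of all genes by -0.15 and changed no AP-1 call. With limma-voom, Rps6ka1 (1.32, adjusted p = 0.0979), Dusp2 (3.74, adjusted p = 0.0859) and Hspa1b (3.05, adjusted p = 0.107) were not called. No paired analysis was possible because each litter was collected at 1 stage only. Depth limits Fosl1 and Batf, which had at most 12 and 6 counts in an E12.5 litter.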
